A study of Mus musculus with 4 samples.

Results

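The genes Mafg, Maff and Mafk encode the small MAF proteins of the mouse. They were chosen by name, and every listed peak whose midpoint lay inside one of them or within 50 kb of either end was taken. This gave 17 peaks of 68763 in the deposited list, for 3 of the 21887 protein-coding genes of the RefSeq table used. The list comes from chromatin immunoprecipitation with sequencing (ChIP-seq) of formaldehyde-fixed livers of C57BL6/J mice. There were 2 libraries of livers labelled Ad BLRP MAFG, which overexpressed MafG with the BLRP peptide tag, and 2 of livers labelled Ad BLRP Control. All 4 were precipitated with an antibody against the tag (Avi-tag, per the labels). The antibody was thus aimed at the introduced protein and not at native MafG, MafF or MafK. The list joins 1 collection of BLRP-MafG tags and 1 of control tags, holds no value per library, and allows no test between animals.

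Small MAF proteins are basic leucine zipper (bZIP) factors that bind DNA as pairs and lack a transactivation domain. Paired with each other they are known to repress, and paired with CNC factors such as NRF2 they are known to activate, through MAF recognition elements and the related antioxidant response elements. In liver Mafg is known as a target gene of both NRF2 and the bile acid receptor FXR, and Maff is known as a stress-inducible gene.

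Peaks were placed against the start sites of the RefSeq promoter table (build GRCm38.p6, the assembly of mm10). All 3 genes matched it, with 1 start site for Mafg, 3 for Maff and 1 for Mafk. In Maff and Mafk the first start site is the first base of the gene. The start site of Mafg (120633547) lies inside the annotated gene, whose 5′ end on the minus strand is at 120634955. The 250 bases before it thus also lie inside the annotated gene, and Mafg distances from the start site are not distances from that 5′ end. The sequence of the peaks themselves was not used here. The 250 bases before the start site of each gene were read instead. Matches to the core of the antioxidant response element, TGACNNNGC on either strand, are in capitals. Mafg is read from the minus strand (chr11:120633548-120633797), and Maff, at its first start site (chr15:79346371-79346620), and Mafk (chr5:139791286-139791535) from the plus strand.
Mafg: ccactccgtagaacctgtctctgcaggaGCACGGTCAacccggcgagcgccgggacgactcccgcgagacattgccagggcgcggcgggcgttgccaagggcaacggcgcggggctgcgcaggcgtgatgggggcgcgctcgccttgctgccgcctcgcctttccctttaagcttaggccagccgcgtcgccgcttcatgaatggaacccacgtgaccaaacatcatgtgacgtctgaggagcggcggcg
Maff: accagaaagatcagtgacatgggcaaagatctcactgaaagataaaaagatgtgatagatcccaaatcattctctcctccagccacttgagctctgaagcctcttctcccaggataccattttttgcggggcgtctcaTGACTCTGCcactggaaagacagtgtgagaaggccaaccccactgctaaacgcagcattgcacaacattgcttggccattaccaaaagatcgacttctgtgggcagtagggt
Mafk: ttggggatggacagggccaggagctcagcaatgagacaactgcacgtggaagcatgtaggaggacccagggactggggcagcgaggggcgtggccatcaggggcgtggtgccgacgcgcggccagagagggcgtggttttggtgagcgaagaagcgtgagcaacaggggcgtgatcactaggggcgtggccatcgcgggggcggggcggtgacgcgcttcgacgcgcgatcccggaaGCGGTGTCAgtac

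Each of these stretches held 1 match to the core. It began 222 bases before the start site in Mafg and 13 in Mafk, both on the opposite strand, and 112 bases before it in Maff. The stretches before the other 2 start sites of Maff held none. Among all 32851 promoter windows of 300 bases in the table, 12.4% held this core, and among the 2299 windows that contained the midpoint of a listed peak 19.4% did. A shortened MAF recognition element, in which the half-site TGCTGA is followed by any base and TCA, was in 0.423% of all windows and in 1.52% of those with a peak, and in none of the 5 windows of the small MAF genes. It can overlap the core. The full palindromic MAF recognition elements of the TRE and the CRE type were each in 2 windows of the table, none of them a small MAF window. The half-site alone stood once, on the opposite strand in Mafk, 226 bases before the start site, and was in 19.5% of all windows. No listed peak overlapped any of the 5 windows. The nearest midpoint lay 559 bp downstream of the Mafg start site, 1801 bp upstream of the first Maff start site and 3547 bp downstream of that of Mafk.

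The 3 loci differed in where their signal lay. Mafg carried most of it inside the gene, Maff carried all of it outside and mainly upstream, and Mafk had only low peaks. Heights are normalized tag counts, which are BLRP-MafG tags scaled by the authors to 10000000 in total, each with an exact 95% Poisson interval of the counting alone. Over all listed peaks the median was 12.3, with quartiles of 7.84 and 23.5, and 10 of the 17 peaks near small MAF genes stood above that median. Of the 17, 4 lay inside a small MAF gene, and 12 lay closer to another protein-coding gene or inside one.

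**Figure D1:**
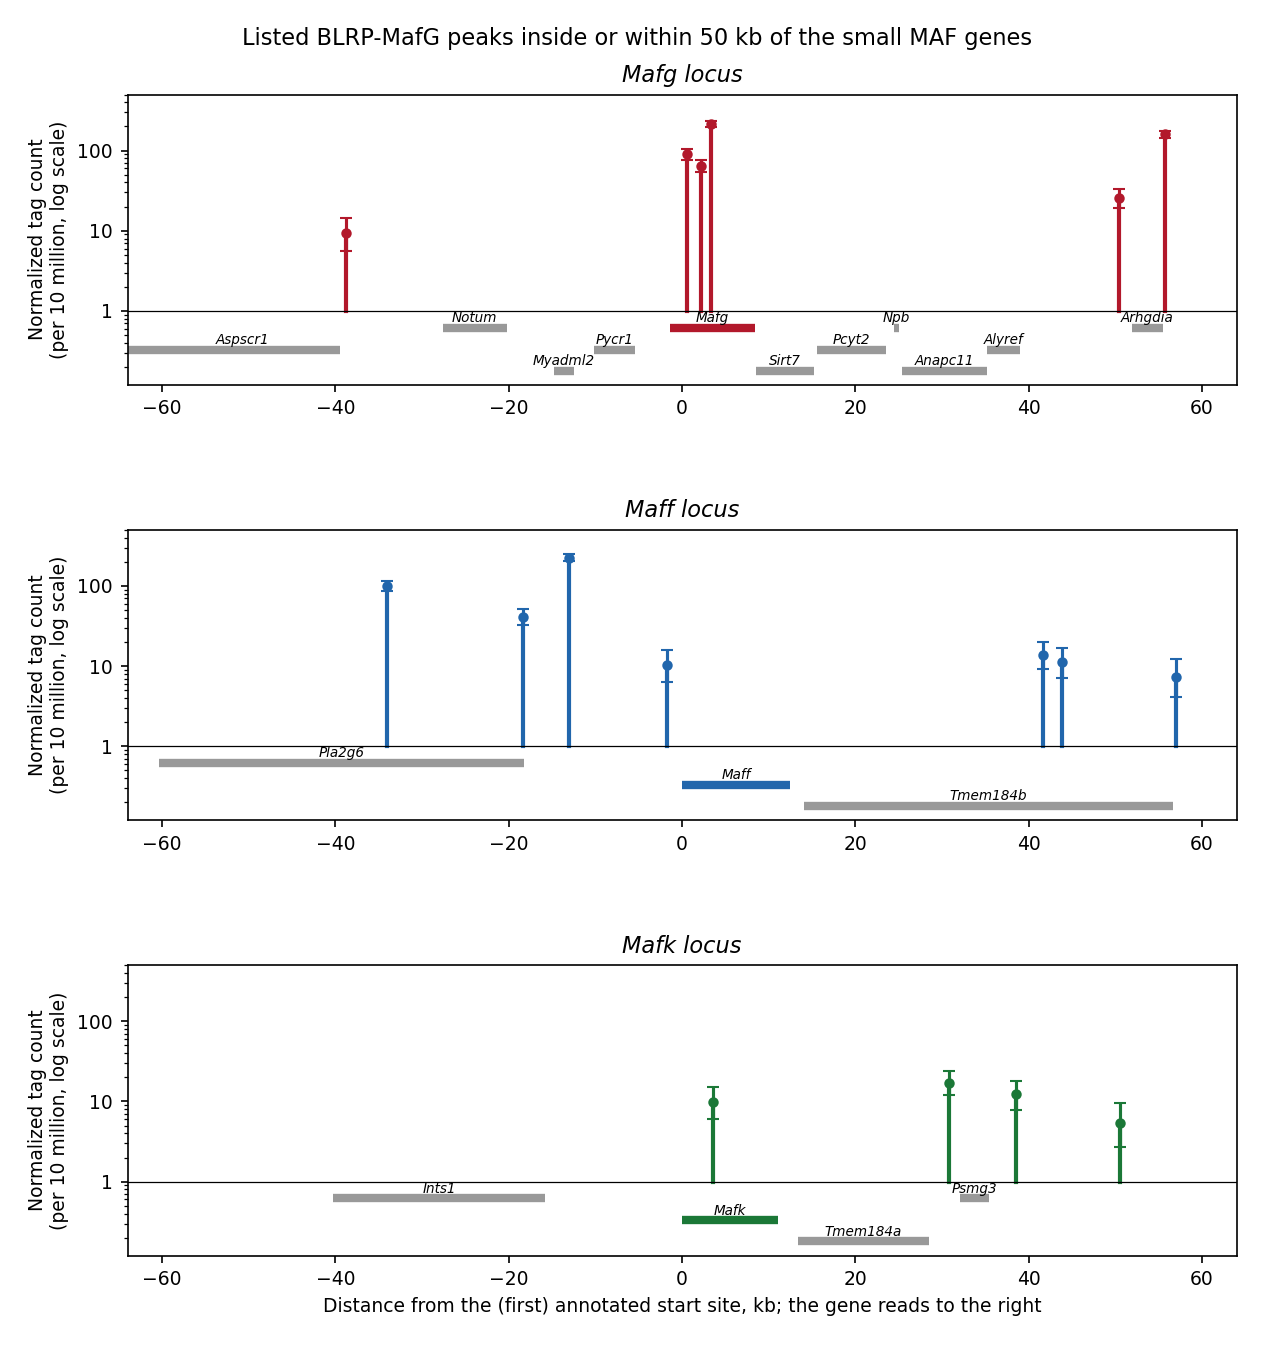
Normalized tag count (per 10000000 tags, log scale, bars are exact 95% Poisson intervals) of each listed peak against the distance from the start site in kb, with each gene reading to the right and protein-coding genes drawn to scale below. The Mafg peaks of 89.7, 64.7 and 213 sit inside the gene, the Maff peak of 226 sits upstream, and no Mafk peak exceeds 17.2.

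Mafg spans 9839 bp at chr11:120625117-120634955 on the minus strand, and held 3 peaks. Counted downstream from the start site, the first reached 89.7 (77.2 to 104) at 559 bp (chr11:120632888-120633088). The second reached 64.7 (54.1 to 76.7) at 2192 bp (chr11:120631255-120631455). The third reached 213 (194 to 234) at 3322 bp (chr11:120630125-120630325). The third was the tallest and its interval lay above those of the other two, and the interval of the first began just above the end of that of the second. It ranked 637th of all listed peaks, with 99.1% of peaks lower. The midpoints were 1633 and 1130 bp apart, and all 3 peaks lay nearer the start site than the 3′ end of the gene. A lncRNA gene on the plus strand, Gm17586, starts at position 120633750 and overlaps the 5′ end of the Mafg locus, so reads near it cannot be given to 1 gene by position alone.

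The number of peaks inside Mafg was high for a gene of its size. Of all protein-coding genes, 50.5% held a peak inside and 18.1% held 3 or more. Of the 1803 genes with a length within 1.2 times that of Mafg, 99.1% held fewer than 3, and 99.9% had a lower sum of normalized tag counts inside than the 368 of Mafg. The control held 2, 1 and 2 tags in the 3 peaks, in the order from the start site. The ratios of BLRP-MafG to control tags, scaled by the total tags, were 77.2 (21.1 to 642), 111 (19.6 to 4431) and 183 (50.5 to 1520) by exact 95% conditional binomial intervals. These intervals overlap. Summed over the 3 peaks there were 750 BLRP-MafG tags against 5 control tags, a ratio of 127 (54.0 to 391). The authors listed only peaks at least 10-fold above control, a filter that favours low control counts.

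The sequence of the introduced construct was not used here. Any tags from MafG coding sequence in it could map to exons of Mafg. The gene table gives gene ends and start sites but no exons, so exonic and intronic peaks were not separated, and signal of the construct and of the chromosome cannot be told apart at these 3 peaks. Some values of the list bear on the shape of the signal there. In the authors' deposited table the fold over the surrounding 10 kb was 9.5, 6.5 and 30.58 at the 3 peaks, in the order from the start site. The medians among listed peaks of like height (within 1.2 times) were 93.1, 69.9 and 186. Only 0.294%, 0.125% and 1.42% of those peaks had a lower fold. The Mafg peaks thus stood out from their surroundings less than peaks of their height did.

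Dividing the tags of a peak by this fold gives the tags per 200 bp that the surroundings held. At the Mafg peaks this level was 19.3, 20.3 and 14.2 tags, against a median of 1.78 over all listed peaks and 1.72 expected by the peak caller from the genome-wide density. The other 2 peaks fall in the same 10 kb, and the headers do not say whether the caller counted them there. On the assumption that it did, and with their tags taken off, spread over 10 kb, the level was 7.92, 7.95 and 7.92 tags per 200 bp, 4.62 times the genome-wide expectation. The 3 windows share most of their bases, so these are not separate measurements. Across 10 kb this amounts to 397 tags, next to the 750 in the peaks.

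The same level over all listed peaks had a median of 1.63 and a 99th percentile of 4.86. Only 43 peaks (0.0625%) were at or above the lowest of the Mafg values, the 3 Mafg peaks among them, and of the 11698 peaks within 5 kb of an annotated start site 0.103% were. The other 40 lay elsewhere, and 25 of the 43 had more than 2 control tags, up to 66. Against peaks with strong neighbours Mafg was less extreme. Of the 137 peaks whose neighbours within 5 kb held 300 tags or more, 94.9% were lower, with a median of 2.98. The neighbours of the Mafg peaks held 567, 618 and 315 tags, in the order from the start site. Among the 68 peaks with 400 to 999 such tags the median was 3.14. The level includes the flanks of the peaks beyond 200 bp and any site that missed the caller's limits, and its source was not tested. The share of the neighbours' tags was also set by a line fitted over the list, a choice made after seeing the data. The 3 values were then 5.55, 5.36 and 6.60. The first and second of these lay below the 6.12 of the peak near Arhgdia in the Mafg window, which had no other listed peak within 5 kb. The percentages above were taken under the first assumption only.

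**Figure D2:**
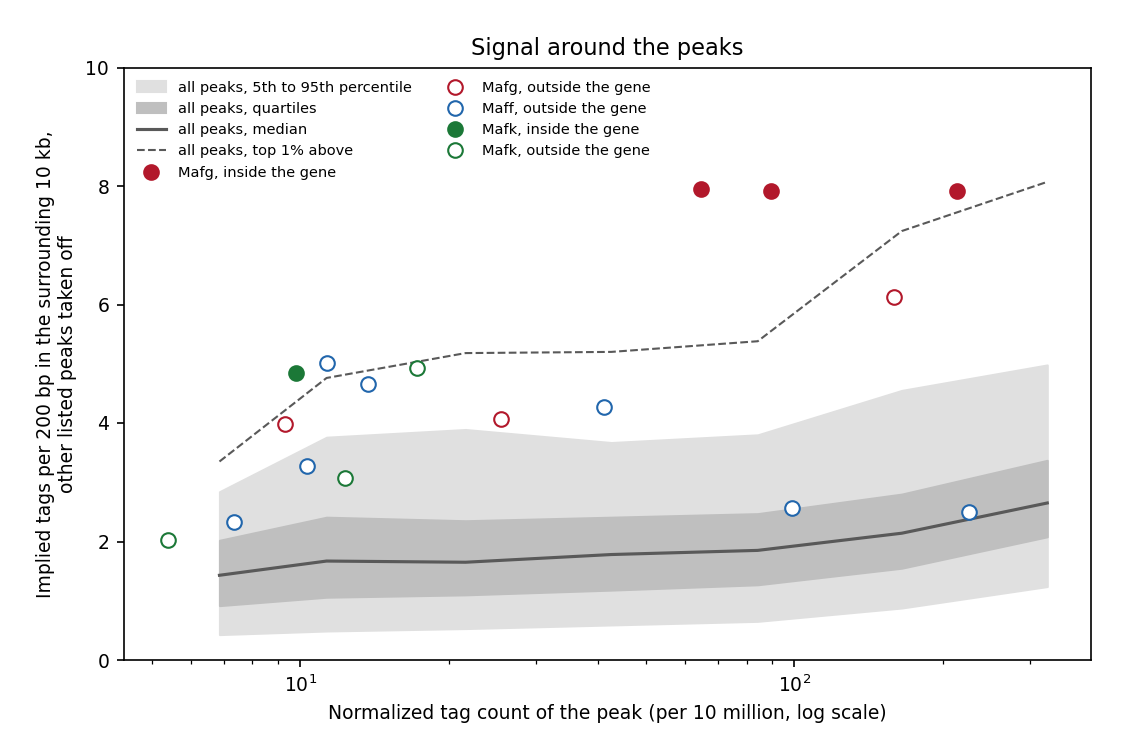
Implied tags per 200 bp in the surrounding 10 kb, with other listed peaks taken off, against the normalized tag count of the peak (log scale), for the 17 peaks (filled inside the gene, open outside) and as bands over all listed peaks in classes of height. The 3 filled Mafg points lie at 7.92 to 7.95 under the assumed share of neighbouring tags, while the other 14 peaks lie between 2.02 and 6.12. The fitted share, not drawn, gave 5.55, 5.36 and 6.60 at the Mafg peaks, which overlaps that range.

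All 17 peaks near the 3 genes were above the median level of the list, and the other 14 ran from 2.02 to 6.12 tags per 200 bp. The highest of these was at the distant Arhgdia peak of the Mafg window, where 99.8% of listed peaks were lower. The peak inside Mafk had 4.85, with 99.0% lower. The highest peak outside Mafk had 4.92, with 99.1% lower. The 2 tallest peaks of the Maff window had 2.57 and 2.49, with 82.0% and 80.2% lower. The remaining peaks of that window ran from 2.33, with 75.7% lower, to 5.01, with 99.2% lower. Listed peaks within 5 kb of an annotated start site had a higher median level, 2.29. Of those, 60.8% and 57.9% were lower than the 2 tallest peaks of the Maff window. For the 14 peaks this share ran from 38.5% at the lowest level, in the Mafk window, to 99.5% at the Arhgdia peak. The deposited clonal fold, which compares tags with those expected from unique positions, was 0.85, 0.78 and 0.72 at the 3 Mafg peaks in the authors' deposited table. Among peaks of like height the medians were 0.850, 0.870 and 0.760. The peak of 64.7 fell below the 5th percentile of its height class (0.800), and the other two were within the 5th to 95th percentile of theirs.

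Outside Mafg, 3 peaks lay within 50 kb of its ends, all of them over 37 kb away and next to other genes. The tallest, of 159 (142 to 177) at chr11:120577776-120577976, lay 47241 bp beyond the 3′ end of Mafg and 223 bp from Arhgdia. It had 7 control tags, the most of the 17 peaks, and a ratio of 39.0 (18.7 to 97.9). A second of 25.5 (19.0 to 33.4) at chr11:120583074-120583274 lay 1550 bp upstream of an Arhgdia start site, with a ratio of 14.6 (4.73 to 73.2). On the other side a low peak of 9.31 (5.61 to 14.5) at chr11:120672231-120672431 lay 642 bp upstream of Aspscr1, which encodes a protein that tethers glucose transporter vesicles. The control had 0 tags here, so the ratio was taken against a floor of 3 tags and came to 5.34 (exact lower limit 3.94). The genes next to Mafg on either side, Sirt7 and Pycr1, had no listed peak within their lengths. Inside the gene lay 65.5% of the 561 normalized tags summed over the Mafg window.

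Maff spans 12458 bp at chr15:79346621-79359078 on the plus strand and held no peak, whereas 7 lay within 50 kb. The tallest, of 226 (206 to 248) at chr15:79333423-79333623, was 13098 bp upstream of the first start site and outside every annotated protein-coding gene. It ranked 558th of all listed peaks. Its interval overlaps that of the tallest Mafg peak, so their heights did not differ beyond counting error. It had 2 control tags and a ratio of 195 (53.6 to 1614). Unlike the Mafg peaks it stood as far above its surroundings as peaks of its height, with a deposited fold of 185.56 in the authors' deposited table against a median of 193 in 462 peaks of like height. This fold is not corrected for neighbouring peaks. No other listed peak lay within 5 kb of the Maff peak, whereas each Mafg peak had the other 2 there. The closest protein-coding gene is Pla2g6, which encodes a calcium-independent phospholipase A2 and has its start site 5152 bp away on the far side, and Maff is the next gene in the other direction.

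Upstream of Maff stood 3 more peaks. One of 99.0 (85.8 to 114) at chr15:79312454-79312654 lay 34067 bp upstream, inside Pla2g6, with 2 control tags and a ratio of 85.2 (23.3 to 708). One of 41.2 (32.8 to 51.0) at chr15:79328123-79328323 lay 148 bp inside the start of Pla2g6, where the control had 0 tags and the floor gave a ratio of 23.6 (exact lower limit 18.8). The peak closest to Maff, 1801 bp upstream at chr15:79344720-79344920, was low, at 10.3 (6.37 to 15.7), where the control had 0 tags and the floor gave 5.90 (exact lower limit 4.39). It was the only one of the 7 that lay nearer to Maff than to another protein-coding gene. The upstream peaks held 92.1% of the 409 normalized tags of the window.

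The 3 peaks downstream of Maff were low and belonged by position to Tmem184b, the gene of a transmembrane protein. Inside that gene lay peaks of 13.7 (9.12 to 19.8) and 11.3 (7.14 to 16.9) at chr15:79388201-79388401 and chr15:79390404-79390604. The third, of 7.35 (4.11 to 12.1) at chr15:79403553-79403753, lay 350 bp upstream of its start. Their intervals overlap one another. Against the floor of 3 control tags their ratios were 7.87, 6.47 and 4.22 in the same order, with exact lower limits of 5.99 and 3.03 for the first and last, and the second, with 1 control tag, had a counted ratio of 19.4 (3.15 to 799).

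Mafk spans 11118 bp at chr5:139791536-139802653 on the plus strand. It held 1 low peak of 9.80 (5.99 to 15.1) at chr5:139794983-139795183, 3547 bp downstream of the start site, with 37.7% of listed peaks lower. With 0 control tags its ratio was 5.62 against the floor of 3 (exact lower limit 4.16). Its deposited fold over the surroundings of 4.12 in the authors' deposited table was close to the limit of 4 for listing, and 0.800% of peaks of like height had a lower one.

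The other 3 peaks of the Mafk window were all downstream, over 19 kb beyond the gene. The highest, of 17.2 (11.9 to 23.9) at chr5:139822249-139822449, lay 1264 bp from Psmg3, which encodes a proteasome assembly chaperone, with a ratio of 14.8 (3.79 to 127). A peak of 12.3 (7.93 to 18.1) at chr5:139829994-139830194 lay 3200 bp upstream of Psmg3, with a ratio of 21.1 (3.45 to 866). The last, of 5.39 (2.69 to 9.64) at chr5:139841983-139842183, was among the lowest of the list, with 0.681% of peaks lower, 0 control tags and, by the floor, a ratio of 3.09 (exact lower limit 2.12). No listed peak lay within 50 kb upstream of Mafk.

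**Figure D3:**
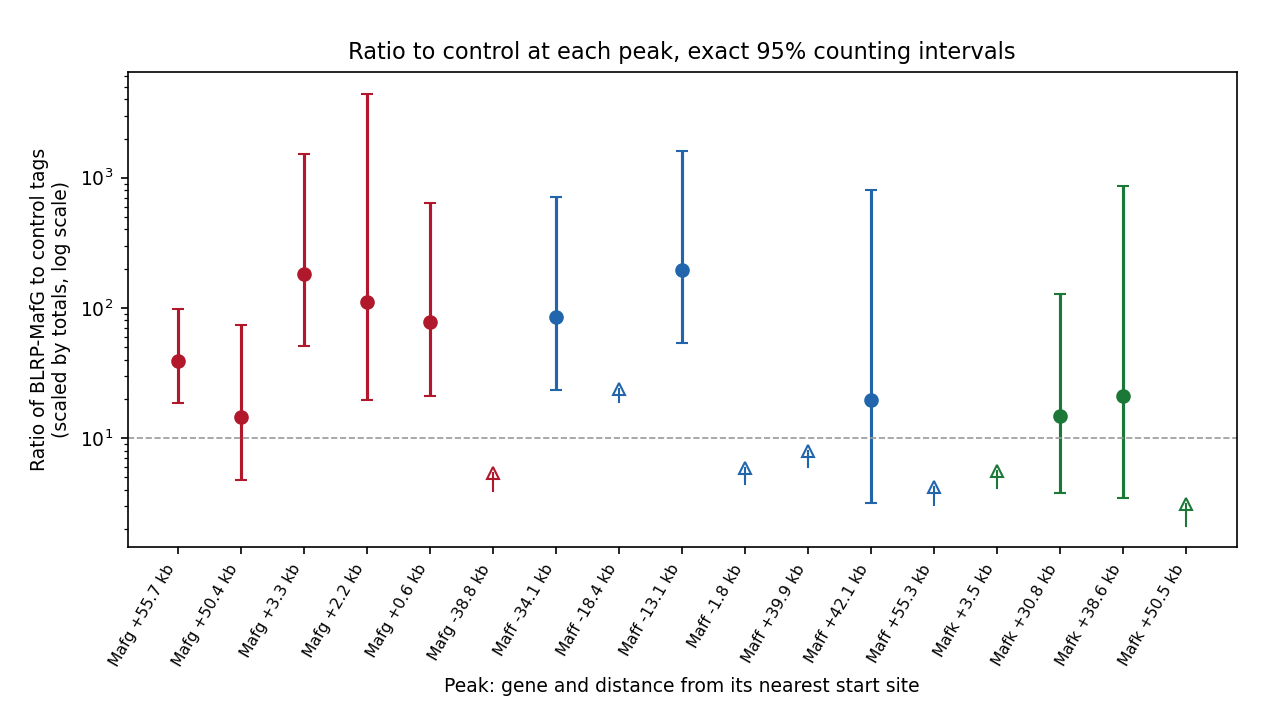
Ratio of BLRP-MafG to control tags, scaled by total tags (log scale), at each of the 17 peaks, labelled by gene and distance from the nearest start site of that gene. Circles are counted ratios with exact 95% conditional binomial intervals, triangles are ratios against a floor of 3 control tags with a line to the exact lower limit, and the dashed line marks the 10-fold excess required for listing; the highest circles, at 195 and 183, belong to Maff and Mafg.

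Set beside all protein-coding genes, Mafg was rich in signal in both windows, Maff in the window of 50 kb only, and Mafk in neither. A listed peak inside or within 50 kb was present at 93.5% of protein-coding genes, so having one at all 3 small MAF genes is near the background. The same holds at 10 kb, where all 3 had one against 74.5% of genes. The highest peak within 10 kb was 213 for Mafg, 10.3 for Maff and 9.80 for Mafk, against a median of 13.7 over all genes, and 97.9%, 39.9% and 38.6% of genes were lower, in that order. The summed normalized tag count within 50 kb was 561 for Mafg, 409 for Maff and 44.7 for Mafk, against a median of 86.8 and an upper quartile of 165 over all genes. Lower sums were found at 98.1%, 95.6% and 28.7% of genes, in that order. A peak of 200 or more normalized tags in this window, which Mafg and Maff had, was present at 5.47% of genes. The counts of peaks were ordinary. Mafg had 6, Maff 7 and Mafk 4, with a median of 5 over all genes. Mafg and Maff thus stood high by the height of their peaks, and the 3 highest of Maff lay over 10 kb from the gene. Leaving out the peaks inside the genes, the highest peaks were 159 for Mafg, 226 for Maff and 17.2 for Mafk. Outside Mafg the sum within 50 kb was 194, and no listed peak lay outside it within 10 kb. Its ranks thus include the 3 inside peaks, where signal of the construct could not be separated.

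All 7 genes of the CNC factors and of Keap1, whose product holds NRF2 in check, had a peak inside the gene, against 2 of 3 small MAF genes. The background was 50.5%, over genes of all lengths. These 7 genes ran from 9603 bp (Keap1) to 347697 bp (Bach2), against 9839 to 12458 bp for the small MAF genes. None of the 7 had a peak of 200 or more within 50 kb, and the median highest was 73.5, against 33.8 over all genes. Nfe2l2, the NRF2 gene, summed to 161 and Nfe2l3 to 172. Bach1, a haem-sensing repressor gene, summed to 175, and Nfe2 to 160. Nfe2l1 and Keap1 were lower, at 84.3 and 89.3. Bach2 summed to 553 with 20 peaks inside, but is 347697 bp long.

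Large MAF proteins, unlike the small ones, carry a transactivation domain. Of their genes, Mafa had a highest peak of 234 within 50 kb but none inside or within 10 kb, and summed to 406. The lens factor gene Maf and the retinal factor gene Nrl also had none inside, with highest peaks of 35.8 and 15.2, with sums of 71.1 and 44.2. Of 12 known target genes of NRF2 and small MAF pairs, 11 had a peak inside (50.5% of all protein-coding genes did), all had one within 10 kb (74.5%), and 3 had a peak of 200 or more within 50 kb (5.47%). These were Hmox1 with 316, the sulfiredoxin gene Srxn1 with 303 and the ferritin heavy chain gene Fth1 with 209. Only that of Hmox1 lay within 10 kb, where the highest peaks of Srxn1 and Fth1 were 13.2 and 19.1. The shares over all genes were not matched for gene length.

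The signal of Mafk and of Mafg was also compared with that of other bZIP genes, 50 in all with the small MAF genes, by the summed tag counts inside the gene, 0 to 10 kb outside and 10 to 50 kb outside, as a Euclidean distance on the log2(1 + sum) scale. For Mafk the closest were the stress factor gene Ddit3 (11.3, 0 and 47.1) at 0.462 and Creb1 (17.6, 0 and 33.8) at 0.786, against 9.80, 0 and 34.9 for Mafk itself. For Mafg the nearest were the membrane-bound factor genes Creb3l2 (200, 0 and 25.5) at 3.01 and Atf6 (139, 0 and 27.0) at 3.13. Mafg itself had 368, 0 and 194. On the log2 scale both differed from Mafg most at 10 to 50 kb outside the gene. The 368 includes any signal of the construct. The median distance to the other bZIP genes was 7.87 for Mafg and 4.93 for Mafk. Neither of the other small MAF genes was among the nearest 2 of either.

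**Figure D4:**
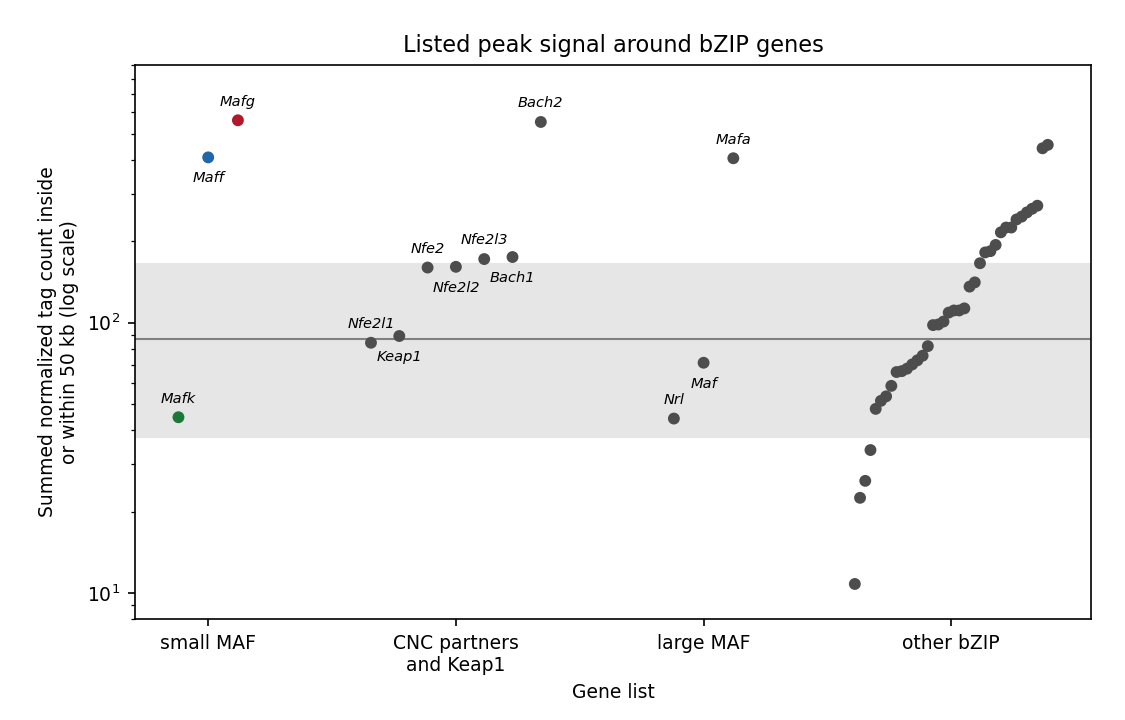
Summed normalized tag count of listed peaks inside or within 50 kb (log scale) for the genes of 4 lists, each point a gene, ordered within its list. The line and the band are the median (86.8) and the quartiles (37.7 and 165) over all protein-coding genes; Mafg at 561 and Maff at 409 lie above the band, and Mafk at 44.7 lies in its lower part.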

How the data were processed

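A single peak list was deposited. Build mm10 and the tools Bowtie2 and HOMER are named, without versions, per the submitters' processing notes. HOMER findPeaks, per the file headers, called peaks of 200 bp on 20406492 BLRP-MafG tags with control tags as input, required a 10-fold excess over control (Poisson p of 1e-06) and 4-fold over the surrounding 10 kb, and counted at most 1 tag per bp. Whether each collection joined both libraries is not stated. The deposited signal values are the normalized tag count and the control tags (0.5 standing for 0). The deposited fold values are linear ratios. The deposited p-values of the peak caller and its peak score were not used.

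Normalized counts were turned back into whole tags (all within 0.102 of a whole number). The control total implied by the deposited folds was 1.72e+07 tags. The list's 1 column of BLRP-MafG tags scaled to the control total was not used. A median peak holds 25 BLRP-MafG tags and 1 control tag, so single ratios are imprecise; intervals and floors cover counting error only. Genes came from a RefSeq table of GRCm38.p6. No test was made, since there is no value per library. Functions were tested on simulated data. The genes named were the members with every peak in their windows, genes closer to those peaks, the listed partner and large MAF genes, and the 2 bZIP genes most like Mafg and Mafk. A listed gene, and the likeness of Maff, are not reported here. The lncRNA Gm17586, the neighbours Sirt7 and Pycr1, and Hmox1, Srxn1 and Fth1 were named after their values were seen. Members and lists were chosen with earlier results of these data known. Python 3.11.15, pandas 2.3.3, numpy 2.4.6 and scipy 1.17.1 were used.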

Additional observations from a re-analysis of the deposited data

How the results depend on the processing

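The window decided most counts. Peaks at Mafg, Maff and Mafk numbered 3, 1 and 1 within 10 kb, 3, 3 and 2 within 20 kb, and 10, 11 and 11 within 100 kb. Summed normalized tag counts were 368, 10.3 and 9.80 within 10 kb, 368, 278 and 27.0 within 20 kb, and 865, 458 and 126 within 100 kb. The highest peak was 10.3 for Maff and 9.80 for Mafk within 10 kb, and 24.5 for Mafk within 100 kb. Outside the gene only, the highest Mafg peak was 159. With 20 or more normalized tags, Maff kept 3 peaks and Mafk 0. With a fold over control of at least 20, Mafk had 2 peaks and a sum of 22.1.

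Counting 0 control tags as 0.5, as the authors did, raised the ratio of the Mafg window's peak at Aspscr1 to 32.1. The 4 such Maff peaks, from upstream to downstream, rose to 142, 35.4, 47.2 and 25.3, and the 2 Mafk peaks to 33.7 and 18.6. With the fitted share of neighbouring tags, an alternative chosen after seeing the data, the levels between the Mafg peaks were 5.55, 5.36 and 6.60. In the other 23 alternatives, any overlap with the window among them, values stayed within counting error or counts within 1.5 times. No paired analysis was possible because the list holds no value per library, and for the same reason no library could be left out.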
